A study of Homo sapiens with 48 samples.

Results

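Transcripts of the matrix metalloproteinase (MMP) system were followed in macrophage-like THP-1 cells: the proteases MMP1, MMP7, MMP9, MMP10, MMP12, MMP14 and MMP19, and the inhibitors TIMP1, TIMP2 and TIMP3. These genes were selected by symbol in the platform annotation. They made up 10 of the 20399 named genes and 29 of the 45220 features of the array, with 10 features each for MMP1 and MMP9, 2 for MMP19 and 1 for each of the rest. A gene with several features was read from its brightest one on average.

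MMPs are zinc proteases that are made as inactive precursors and together cut most proteins of the extracellular matrix, as well as cytokines and receptors. TIMPs, the tissue inhibitors of metalloproteinases, bind the active site and also form complexes with some precursors. Macrophages release several of these proteases together with their inhibitors, and in the lung the balance between them is known from inflammation, emphysema and fibrosis. Phorbol esters are long known to induce collagenase and gelatinase genes in monocytic cells, partly through the transcription factor AP-1, whose binding site is often written TGANTCA.

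THP-1 is an established human monocytic leukaemia line, so the samples stand for 1 line and not for primary macrophages. The phorbol ester PMA was used to differentiate all cells, those of the controls too. They then received medium alone, or medium of 1 ml with 100 µg of a carbon material that the labels name rCNT, tCNT, Baytube, Graphite, Fullerene or SES. Exposure lasted 6 or 24 h. There were 12 exposed groups of 3 samples and 2 control groups of 6, 48 samples in all, measured in 3 dyes. The labels do not say that samples of a group came from separate cultures, so p-values measure only the spread between these samples, which may be technical.

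The values are log2 values as deposited, with a highest value of 16.00 in the table, and sample medians between 7.68 and 7.70. Each gene is set only against itself in other samples, because probes differ in brightness. Labels and columns of the table were out of step, which bears on every result below. Smooth marks on the array surface, such as stains, matched best, for 46 of the 48 samples, at a distance of 20 or 40 table columns. Those 36 column pairs had a median surface correlation of 0.85 across spots, against -0.08 for the 38 pairs that the labels put on the same array. Columns 20 or 40 apart therefore form 20 column sets, 8 of 3 samples and 12 of 2. Groups named here are groups of samples so labelled, and no sample was moved to another group. A set seldom held samples of a single group: 2 of the 36 pairs were of the same labelled group. In 6 samples the SD of the surface component was above 0.2, against a median of 0.106.

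The upstream sequences of MMP7 and MMP10 are shown because these 2 genes rose and fell together across samples more closely than any other pair of members. MMP7 encodes matrilysin, a small secreted protease that lacks the hemopexin domain, and MMP10 encodes stromelysin 2, which cuts many matrix proteins and activates other MMP precursors. RefSeq promoters (GRCh38.p14) were at hand for MMP7, MMP10, MMP14, TIMP1 and TIMP3, 5 of the 10 genes. The 250 bases before the start site are written 5′ to 3′ on the strand of the gene, and capitals mark the letters TGANTCA, searched on both strands. The MMP7 window is chr11:102530748-102530997 and the MMP10 window chr11:102780629-102780878, both on the minus strand.
MMP7: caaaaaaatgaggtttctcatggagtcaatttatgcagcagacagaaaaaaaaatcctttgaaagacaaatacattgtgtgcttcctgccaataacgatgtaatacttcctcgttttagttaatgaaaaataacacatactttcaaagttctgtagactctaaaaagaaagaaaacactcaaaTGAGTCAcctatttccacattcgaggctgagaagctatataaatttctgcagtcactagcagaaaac
MMP10: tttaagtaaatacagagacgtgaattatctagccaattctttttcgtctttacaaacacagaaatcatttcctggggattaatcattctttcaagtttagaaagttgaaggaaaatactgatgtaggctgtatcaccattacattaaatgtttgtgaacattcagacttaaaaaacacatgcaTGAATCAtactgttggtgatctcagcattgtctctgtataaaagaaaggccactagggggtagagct
The MMP7 match reads TGAGTCA and the MMP10 match TGAATCA. Both lie at -67 to -61 from the start site. The letters occur in 6.60% of all 27305 promoter windows of this length, 1801 windows. The windows of MMP14, TIMP1 and TIMP3 do not hold them. A match in a window is a description and not a shown binding site. A window without these exact letters is likewise not shown to lack a site. MMP7, MMP10, MMP1 and MMP12 lie on chromosome 11, where RefSeq gives the order of protein-coding genes as MMP7, MMP20, MMP27, MMP8, MMP10, MMP1, MMP3 and MMP12. The other members lie on chromosomes 12 (MMP19), 14 (MMP14), 17 (TIMP2), 20 (MMP9), 22 (TIMP3) and X (TIMP1).

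The secreted gelatinase gene MMP9, whose protein cuts denatured collagen and type IV collagen, was held at the end of the scale in many samples. Its log2 values had a mean of 15.71 ± 0.39 (SD, n = 48), a lowest value of 13.86 in tCNT 24 h replicate 2, a median of 15.89 and a highest of 16.00 in SES 24 h replicate 1. TIMP1, the inhibitor that also binds the MMP9 precursor, had a mean of 15.60 ± 0.43 (SD, n = 48) and ran from 14.41 in control 6 h replicate 4 through a median of 15.76 to 15.98 in SES 6 h replicate 1. MMP9 lay within 0.1 of the table's highest value in 23 samples and TIMP1 in 15, and both did in 13. Over all features 0.336% of values lay there.

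A sharper limit was found in each sample. The highest value of a sample was shared exactly by 5 to 420 features, with a median of 120, and lay between 15.83 and 16.00. MMP9 was exactly at that shared value in 18 of the 48 samples and TIMP1 in 13 of the 48. Both genes sat there in 10 samples, where their deposited values were identical. In the remaining 27 samples neither was at the limit. Of the 12 control samples, 1 had MMP9 and 2 had TIMP1 at the limit, against 17 and 11 of the 36 exposed samples. Within 0.1 of the table's highest value the counts were 4 and 4 of 12 controls, against 19 and 11 of 36 exposed samples, so the split between controls and exposed depends on the rule. No labelled group had MMP9 or TIMP1 at the limit in all its samples. A value at the limit is only a lower bound of the signal, so differences between samples at the limit are not measured, and fold changes of these 2 genes may be too small.

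The 10 repeated features of MMP9 and of MMP1 show the error of a single spot. MMP1 encodes interstitial collagenase, which cuts fibrillar collagen. Within a sample the 10 MMP1 features had a median SD of 0.27, with 0.085 in the tightest sample and 0.73 in the widest. Their means per sample ran from 10.44 to 14.15 with an SD of 0.85 between samples. That spread holds every difference between samples besides spot error, and what it comes from was not tested. The features correlated with a median r of 0.87 over the 48 samples and a lowest r of 0.69. The MMP1 means fell into 8 samples between 10.44 and 11.85 and 40 samples between 12.68 and 14.15, with a gap of 0.83. Read from the brightest feature alone, 7 samples lay between 10.58 and 11.98 and 41 between 12.54 and 14.22, a gap of 0.57, with rCNT 6 h replicate 1 in the upper part. By the mean of features, the 8 low samples carried labels of 4 materials and the control: rCNT 24 h replicate 1, rCNT 6 h replicate 1, tCNT 24 h replicate 2, tCNT 6 h replicate 1, Baytube 6 h replicates 2 and 3, Graphite 24 h replicate 2 and control 6 h replicate 3.

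MMP9 spots are partly cut off by the limit, so their spread within a sample is a lower bound where features sit there. The median SD of its 10 features within a sample was 0.21, and it ran from 0 to 2.20. In the 6 samples with the highest surface SD the median was 1.96, against 0.17 in the other 42. The lowest single MMP9 feature was 8.40, in Baytube 6 h replicate 3, one of those 6. All 10 features lay exactly at the shared highest value in 6 samples. The 2 features of MMP19 correlated with r = 0.61 over the 48 samples.

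**Figure D1:**
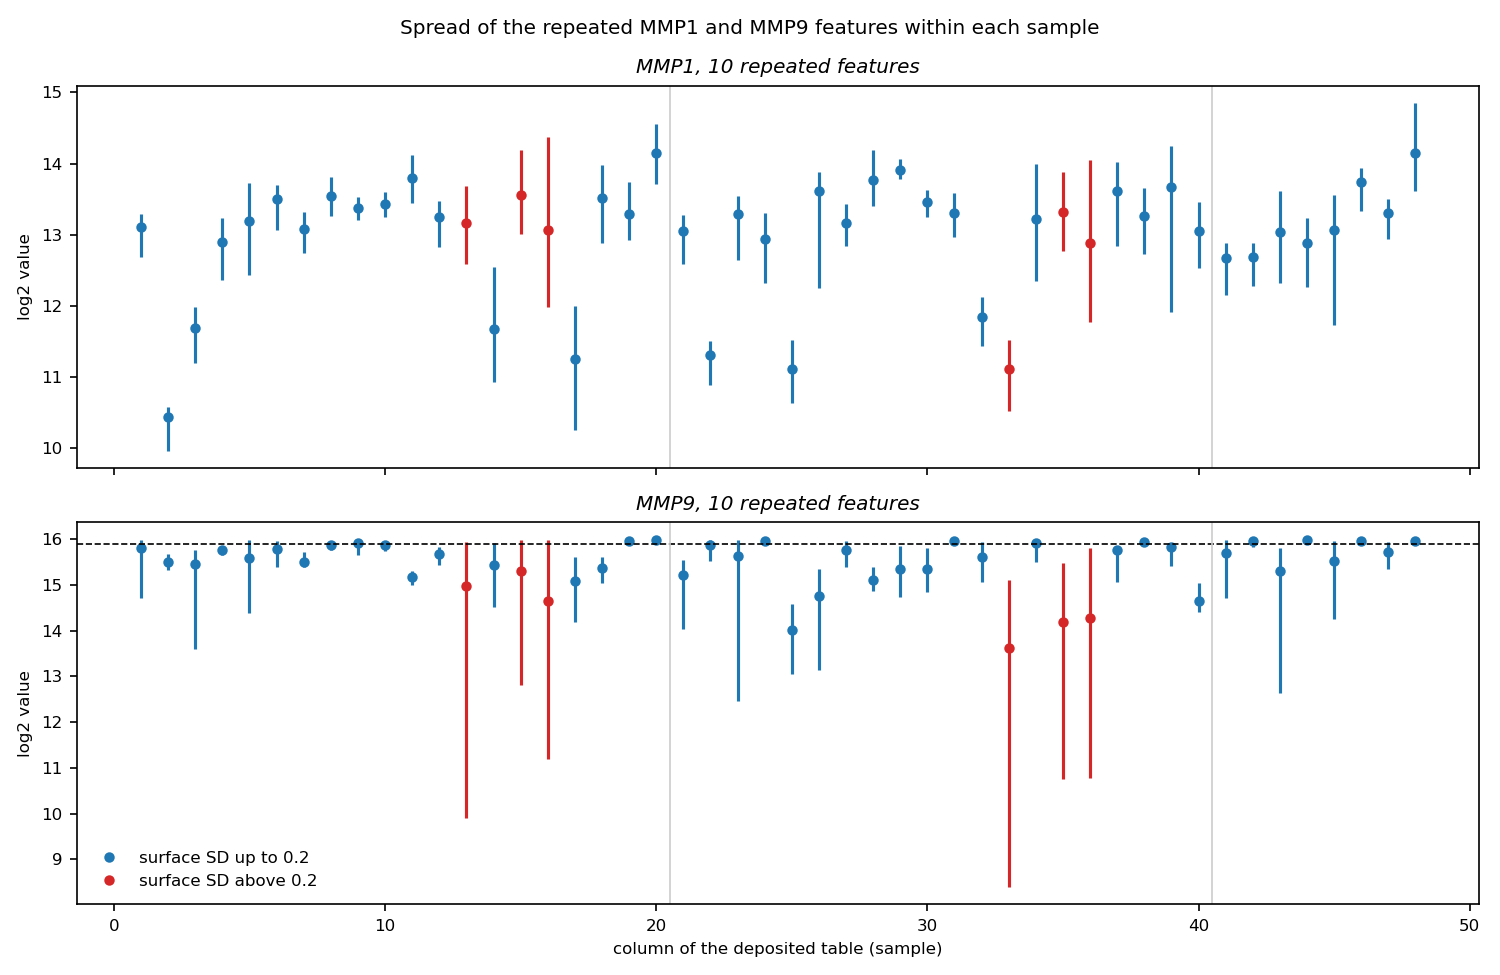
Mean (points) and range (bars) of the 10 repeated MMP1 and MMP9 features in each sample, as log2 values, with samples in the order of the table's columns, vertical lines after columns 20 and 40, and a dashed line at 15.9. MMP1 has 8 samples below 11.9 and none between there and 12.68. The 6 samples with a surface SD above 0.2 are in red and include the 5 widest MMP9 bars.

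None of the other members reached the limit. MMP7 had a mean of 12.53 ± 1.10 (SD, n = 48), from 10.19 in rCNT 24 h replicate 1 through a median of 12.72 to 14.24 in SES 24 h replicate 2. MMP10 had a mean of 8.99 ± 0.96 (SD, n = 48), from 6.85 in rCNT 24 h replicate 1 through 8.81 to 10.69 in tCNT 24 h replicate 1. The samples lowest in MMP7 and in MMP10 were the same. MMP12, the macrophage elastase, had a mean of 8.43 ± 0.76 (SD, n = 48) and ran from 6.73, again in rCNT 24 h replicate 1, through 8.55 to 9.86 in Graphite 24 h replicate 1. MMP12 lay below the median feature of the sample in 9 samples and MMP10 in 5, so part of their ranges is near the dim end of the scale, where signal over background cannot be read from these values.

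MMP14, a membrane-anchored protease that activates the MMP2 precursor with the help of TIMP2, had a mean of 12.92 ± 0.94 (SD, n = 48), from 10.37 in tCNT 6 h replicate 3 through 13.00 to 14.79 in rCNT 6 h replicate 2. MMP19, a secreted MMP with a hemopexin domain, had a mean of 11.24 ± 0.96 (SD, n = 48). Its lowest value of 9.10 and its highest of 13.01 were both in samples labelled tCNT 24 h, replicates 2 and 3, around a median of 11.24. The extremes of a gene thus fell within 1 labelled group. TIMP2, the inhibitor that docks the MMP2 precursor on MMP14, had a mean of 14.23 ± 0.40 (SD, n = 48) and ran from 13.18 in Fullerene 6 h replicate 1 through 14.20 to 15.11 in tCNT 24 h replicate 2. TIMP3, which binds to the matrix and also inhibits ADAM17, had a mean of 12.02 ± 0.45 (SD, n = 48), with its lowest value of 11.02 and its highest of 13.03 in SES 24 h, replicates 3 and 1.

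**Figure D2:**
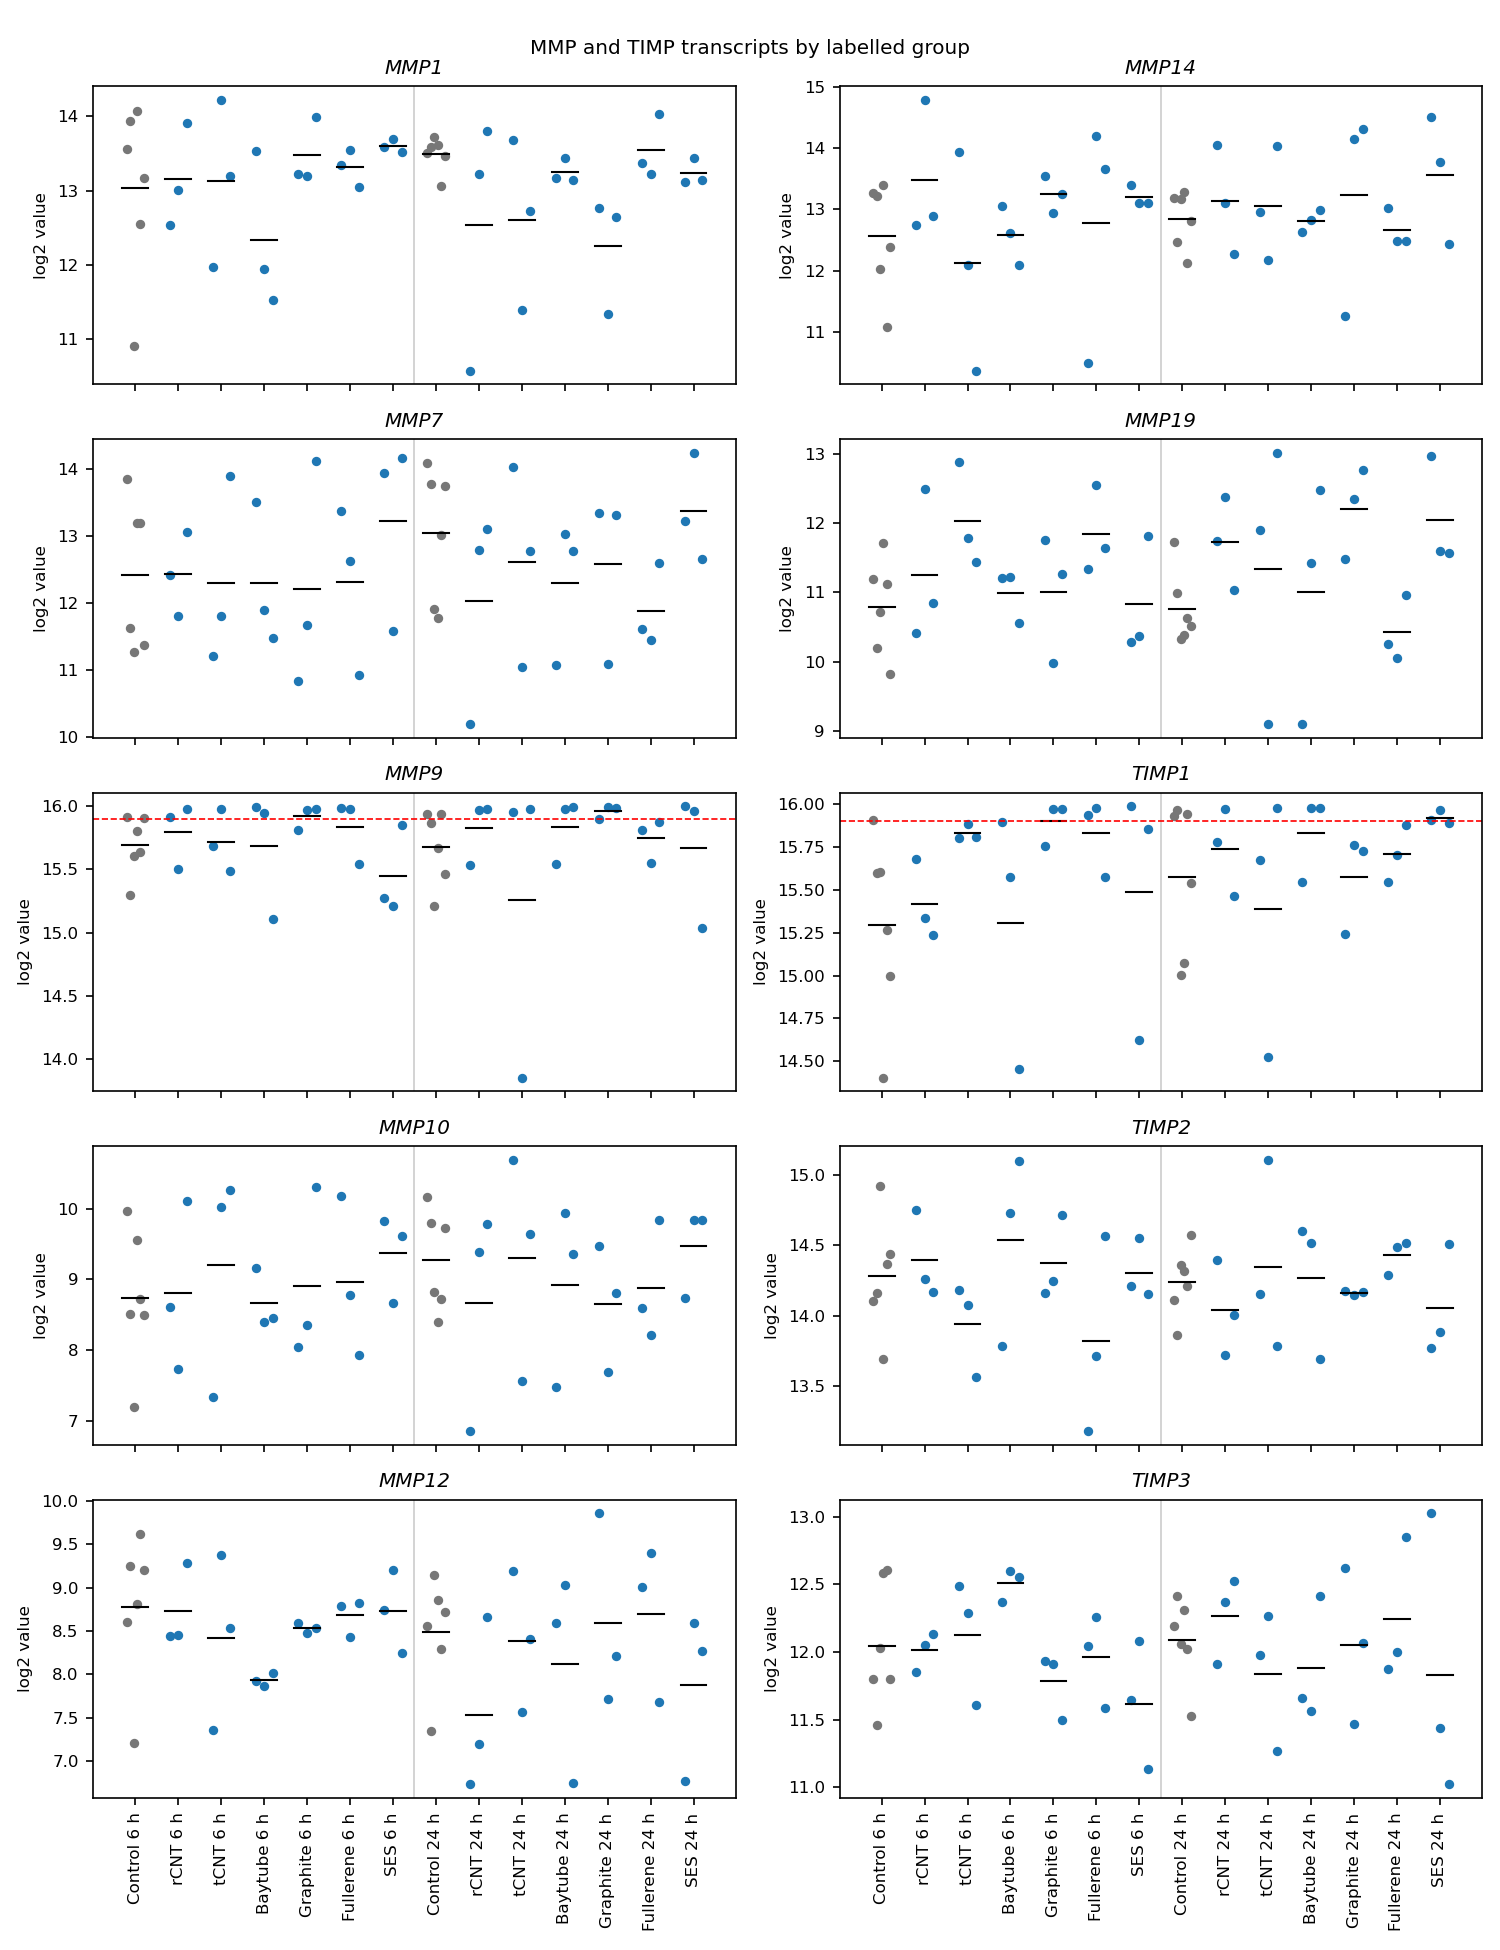
Log2 values of the 10 genes in all 48 samples by labelled group (grey, medium controls; blue, exposed; horizontal bars, group means; vertical line between 6 and 24 h; dashed red line at 15.9). Exposed and control points overlap in every panel, and MMP9 and TIMP1 crowd against the end of the scale.

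Each material was compared with the control of its time, to ask which members changed with exposure. No member passed in any of the 12 comparisons (limma, adjusted p under 0.05). The background was 0% of all genes in 11 of them and 0.446% in Fullerene 6 h. Over the 120 tests of a member in a comparison, 2 had an unadjusted p under 0.05, both in Graphite 24 h. Of all genes, an unadjusted p under 0.05 was reached at 6 h by 2.31% in rCNT, 6.27% in tCNT, 0.941% in Baytube, 1.94% in Graphite, 11.2% in Fullerene and 0.677% in SES. At 24 h it was reached by 4.5% in rCNT, 2.19% in tCNT, 4.69% in Baytube, 15.7% in Graphite, 0.613% in Fullerene and 2.97% in SES. The members' median size of log2 fold change was 0.23, against 0.15 over all genes, and their SEs ran from 0.29 for TIMP2 to 0.80 for MMP7. For MMP7 only differences well above 2-fold could have passed, so small changes were not detectable with 3 exposed samples.

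In the samples labelled Graphite 24 h, MMP19 read 11.48, 12.35 and 12.77, and the 6 controls of that time had a lowest value of 10.33, a median of 10.57 and a highest of 11.73. The lowest Graphite sample lay below the highest control, so the groups overlapped. The log2 fold change was 1.44 ± 0.65 (SE; limma unadjusted p = 0.0343, adjusted p = 0.281). MMP1 in the same samples read 12.76, 11.34 and 12.64, all below the 6 controls, which had a lowest value of 13.06, a median of 13.54 and a highest of 13.71. Its log2 fold change was -1.24 ± 0.59 (SE; limma unadjusted p = 0.0426, adjusted p = 0.305). These values are of the brightest MMP1 feature. By the mean of its 10 features, Graphite 24 h replicate 1 lay at 13.0696 and the lowest 24 h control at 13.0712. The groups were hardly apart there, and the features of that Graphite sample spanned 11.99 to 14.38. MMP1 in Graphite 24 h was the only member in any comparison whose groups did not overlap, 1 of 10 members, where 3.88% of all genes lay wholly below the control in that comparison and 6.48% wholly above it. In the other 11 comparisons no member's groups were apart. There the share of all genes wholly above the control was 0.726% in rCNT, 1.35% in tCNT, 0.255% in Baytube, 0.623% in Graphite, 3.31% in Fullerene and 0.471% in SES at 6 h, and 1.64% in rCNT, 1.71% in tCNT, 0.936% in Baytube, 0.564% in Fullerene and 0.765% in SES at 24 h. The share wholly below it was 0.544%, 0.77%, 0.167%, 0.603%, 1.85% and 0.157% in the same order at 6 h, and 2.18%, 0.765%, 1.1%, 0.529% and 0.98% at 24 h. At an unadjusted p under 0.05 the members there were 2 of 10 and all genes 15.7%. With the column set as a random block, which has a consensus correlation of 0.72, MMP19 was 0.36 ± 0.48 and MMP1 -0.73 ± 0.49 (SE) in Graphite 24 h, and no member there had an unadjusted p under 0.05 (limma), against 1.89% of all genes. In that fit no member passed in any of the 12 comparisons, and Fullerene 6 h fell from 91 called genes to 3. At an unadjusted p under 0.05 it held 6 of the 120 member tests, against 3.68% over all genes. They were MMP19 and TIMP2 in tCNT 6 h (1.21 ± 0.59 and -0.61 ± 0.30, SE), where all genes had 7.22%, MMP12 in Baytube 6 h (-0.99 ± 0.47), with 1.58%, and TIMP2 in Fullerene 6 h (-0.79 ± 0.33), with 8.68%. The others were MMP1 and MMP14 in SES 6 h (1.36 ± 0.46 and 0.82 ± 0.36, SE), with 5.97%. Leaving out a sample at a time, without that block, the fold changes ran from 1.19 to 1.81 for MMP19 and from -1.51 to -0.80 for MMP1.

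In the other comparisons the member with the lowest p lay closer to its control than its error allowed to call. At 24 h these were MMP19 in SES with a log2 fold change of 1.28 ± 0.65 (SE), MMP12 in rCNT with -0.95 ± 0.55, MMP1 in tCNT with -0.88 ± 0.59, and MMP7 in Fullerene with -1.17 ± 0.80 and in Baytube with -0.76 ± 0.80. At 6 h these were MMP19 in tCNT with 1.24 ± 0.65 (SE), MMP14 in rCNT with 0.91 ± 0.69, MMP12 in Baytube with -0.84 ± 0.55, TIMP1 in Graphite with 0.60 ± 0.30 and in Fullerene with 0.53 ± 0.30, and TIMP3 in SES with -0.43 ± 0.33. Of these the lowest limma adjusted p was 0.526, for TIMP1 in Fullerene 6 h. Single samples moved several of them: MMP7 in Baytube 24 h ran from -1.40 to -0.05 on leaving out a sample at a time, MMP1 in tCNT 24 h from -1.46 to -0.29, and MMP14 in rCNT 6 h from 0.33 to 1.33. MMP12 ran from -1.54 to -0.56 in rCNT 24 h and from -1.18 to -0.67 in Baytube 6 h, TIMP3 in SES 6 h from -0.64 to -0.23, and MMP19 from 0.78 to 1.59 in SES 24 h and from 0.78 to 1.62 in tCNT 6 h. TIMP1 ran from 0.45 to 0.76 in Graphite 6 h and from 0.38 to 0.66 in Fullerene 6 h.

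All exposed samples were also set against all controls, which are the same controls as above. On the log2 scale MMP19 differed by 0.61 ± 0.31 (SE; limma adjusted p = 0.591), TIMP1 by 0.23 ± 0.14 (adjusted p = 0.681) and MMP12 by -0.28 ± 0.26 (adjusted p = 0.806). No member passed there, at an unadjusted p under 0.05 either, with a background of 0% of all genes adjusted and 8.47% unadjusted.

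Between the control times no member passed (limma), with 0% of all genes called. At an unadjusted p under 0.05 there was no member, against 1.14% of all genes. The lowest p was that of TIMP1, whose log2 values differed by 0.28 ± 0.24, 24 h minus 6 h (SE; limma adjusted p = 1.00). The difference between the 24 h and the 6 h response was tested for each material. No member passed in any of the 6 tests (limma), with 0% of all genes called. No member had an unadjusted p under 0.05 there either. Such a p was reached by 1.3% of all genes in rCNT, 2.97% in tCNT and 2.45% in Baytube. It was reached by 9.12% in Graphite, 4.3% in Fullerene and 1.61% in SES. Between the labelled dyes no member passed, against 1.96% of all genes, and none passed between columns 1 to 20, 21 to 40 and 41 to 48, against 4.51% (limma F tests). With the column set as a random block, TIMP1 passed between dyes (limma adjusted p = 0.0452) and TIMP1 (adjusted p = 0.0407) and MMP9 (adjusted p = 0.0331) between those column ranges, where 24.8% and 34.8% of all genes passed.

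Column sets separated samples for MMP14 and MMP19 in a way the labelled groups did not. Column sets 1 to 4, the 12 samples in columns 1 to 4, 21 to 24 and 41 to 44, hold samples of all 6 materials and 0 controls. There MMP14 ran from 12.98 to 14.79 with a median of 14.04, against 10.37 to 13.77 with a median of 12.78 in the other 36 samples. The 12 controls ran from 11.07 to 13.41, and the 24 exposed samples of other column sets from 10.37 to 13.77. MMP19 ran from 11.64 to 13.01 in the 12 samples, with a median of 12.49, and from 9.10 to 11.90 in the other 36, with a median of 10.98. Exposed samples outside these sets had a MMP19 median of 11.12 and controls one of 10.67. These MMP19 values are of the brighter of its 2 features. The dimmer one ran from 7.95 to 10.01 in the 12 samples and from 7.10 to 9.98 in the other 36, so its ranges overlapped widely. Because no control lies in these columns, a difference of the columns and an effect of exposure cannot be told apart there.

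Without those 12 samples, a setting chosen after seeing the data, the MMP19 log2 fold change for all exposed against all controls was 0.16 ± 0.28 (SE; limma adjusted p = 0.983). That for Graphite 24 h was 0.67 ± 0.87 (SE). The samples left out were all exposed, and were picked for high MMP14 and MMP19 values. Lower differences of these 2 genes thus follow from that choice and are no test of columns or exposure. MMP14 in Graphite 24 h went from 0.40 ± 0.69 (SE) to -1.88 ± 0.56 (SE; limma adjusted p = 0.0269). This was the only material comparison in which a member passed in any of the settings tried. It rests on a single exposed sample, Graphite 24 h replicate 1 at 11.26, which is assumed to vary like the other groups, and 17.9% of all genes passed with it. That sample had the highest surface SD of all.

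MMP14 was also lowest in whole column sets. Of its values 4 lay apart from the rest: 10.37 and 10.49 in set 15, and 11.07 and 11.26 in set 16. The other 44 samples began at 12.03. The 4 samples carried the labels tCNT 6 h replicate 3, Fullerene 6 h replicate 1, control 6 h replicate 5 and Graphite 24 h replicate 1, and all belong to the 6 samples with the highest surface SD. At the MMP14 spot the surface component ran from -0.35 to 0.24 over all samples, and with it subtracted MMP14 ran from 10.54 to 14.66.

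**Figure D3:**
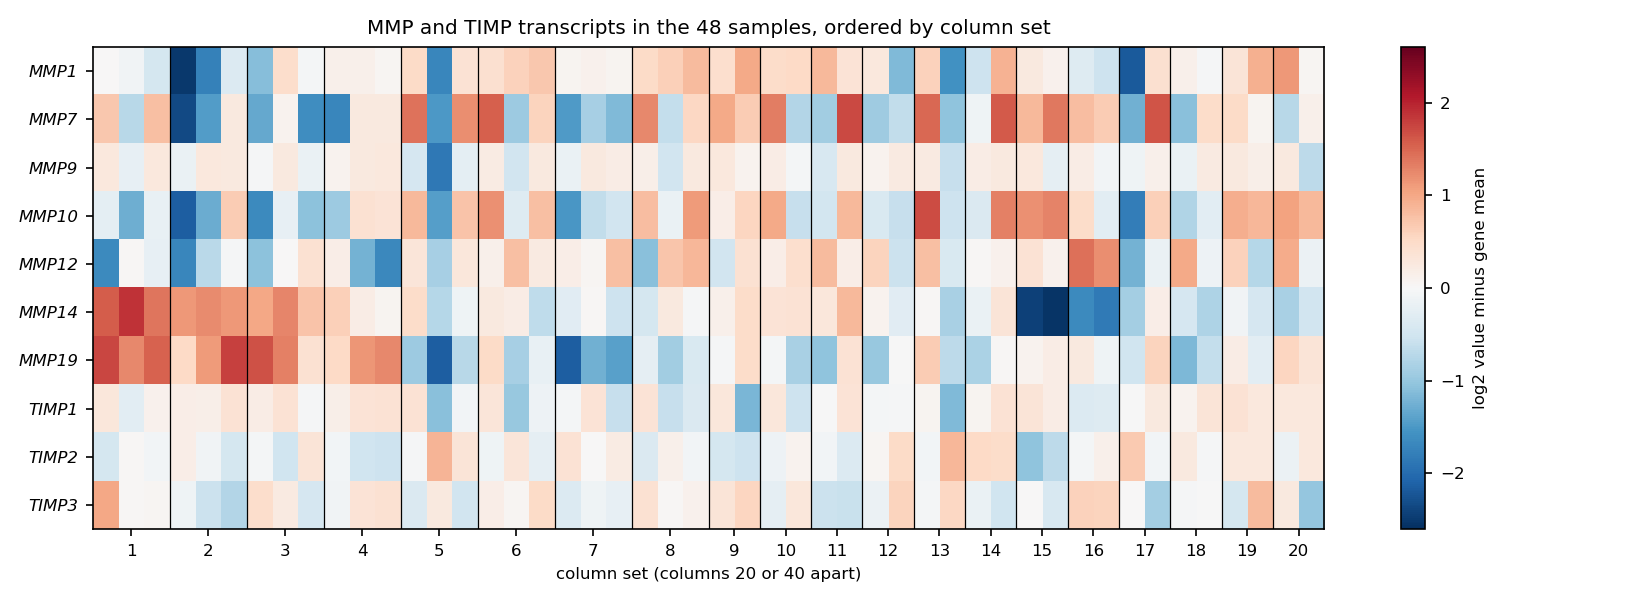
Log2 value minus the gene's mean over the 48 samples, for the 10 genes (rows) and the samples ordered by column set (vertical lines part the 20 sets). MMP14 and MMP19 are high throughout sets 1 to 3, MMP14 is lowest in sets 15 and 16, and MMP7 and MMP10 change sign within sets.

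The share of variance held by column sets put numbers on this. It was 91.0% for MMP14, 79.3% for MMP19 and 62.8% for TIMP2. It was 51.1% for MMP1, 50.6% for TIMP3, 47.5% for MMP10, 46.3% for MMP12 and 41.4% for MMP9, and 37.2% for MMP7 and 35.7% for TIMP1. The members' median was 49.0%, against 80.0% over all genes, and 20 sets of unrelated samples would hold 40.4% on average. MMP7 and TIMP1 thus held no more between sets than unrelated samples would on average. The median range within a set was 1.71 for MMP7 and 1.31 for MMP10, against 0.49 for MMP14. Labelled groups held a median of 21.7% of the members' variance, against 24.2% over all genes and 27.7% for unrelated samples, with the most for MMP19, 32.4%, and the least for MMP10, 8.20%. Labelled dyes held a median of 3.66% for the members and 4.00% for all genes.

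Some pairs of members moved together. Over the 48 samples 5 of the 45 pairs had a Pearson r above 0.5. The median r was 0.04, and 21 pairs were below 0. The share of all gene pairs above 0.5 is not given here, so these counts have no background. The samples share arrays and column sets, so these values describe the table and carry no p. MMP7 and MMP10 had r = 0.85 (Spearman 0.83), 0.72 over the means of the 20 column sets and 0.93 for the deviations from those means. It was 0.83 without the 2 samples farthest from the MMP7 median, and 0.84 with the surface component subtracted. MMP1 and MMP10 had r = 0.69 (Spearman 0.62), with 0.62 between and 0.74 within sets. MMP1 also went with MMP12 at 0.51 and with MMP7 at 0.51, which fell to 0.36 and 0.41 without the 2 samples farthest from the MMP1 median. Other pairs of the chromosome 11 genes had lower values: r was 0.32 for MMP10 with MMP12 (Spearman 0.24) and 0.14 for MMP7 with MMP12 (Spearman 0.08).

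MMP9 and TIMP1 had r = 0.55 (Spearman 0.51), with 0.29 between and 0.68 within sets. In the 27 samples where neither was at its sample's limit, r was 0.55. TIMP2 ran against most of the proteases and TIMP1. Its r was -0.54 with MMP19 (Spearman -0.56), -0.52 with MMP9 (Spearman -0.55), -0.46 with MMP7, -0.44 with MMP10, and -0.41 with both MMP1 and TIMP1. Within column sets these values were -0.72, -0.77, -0.78, -0.80, -0.69 and -0.65. Over the column set means they were weaker, at -0.43, -0.25, -0.21, -0.19, -0.24 and -0.15 in the same order. TIMP2 had an r of 0.04 with MMP12 and of -0.03 with MMP14 over the 48 samples. Over the 48 samples TIMP3 followed none of the other members with an r beyond -0.28. Within column sets its lowest values were -0.59 with MMP12 and -0.49 with MMP14, and its highest was 0.004 with TIMP2.

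**Figure D4:**
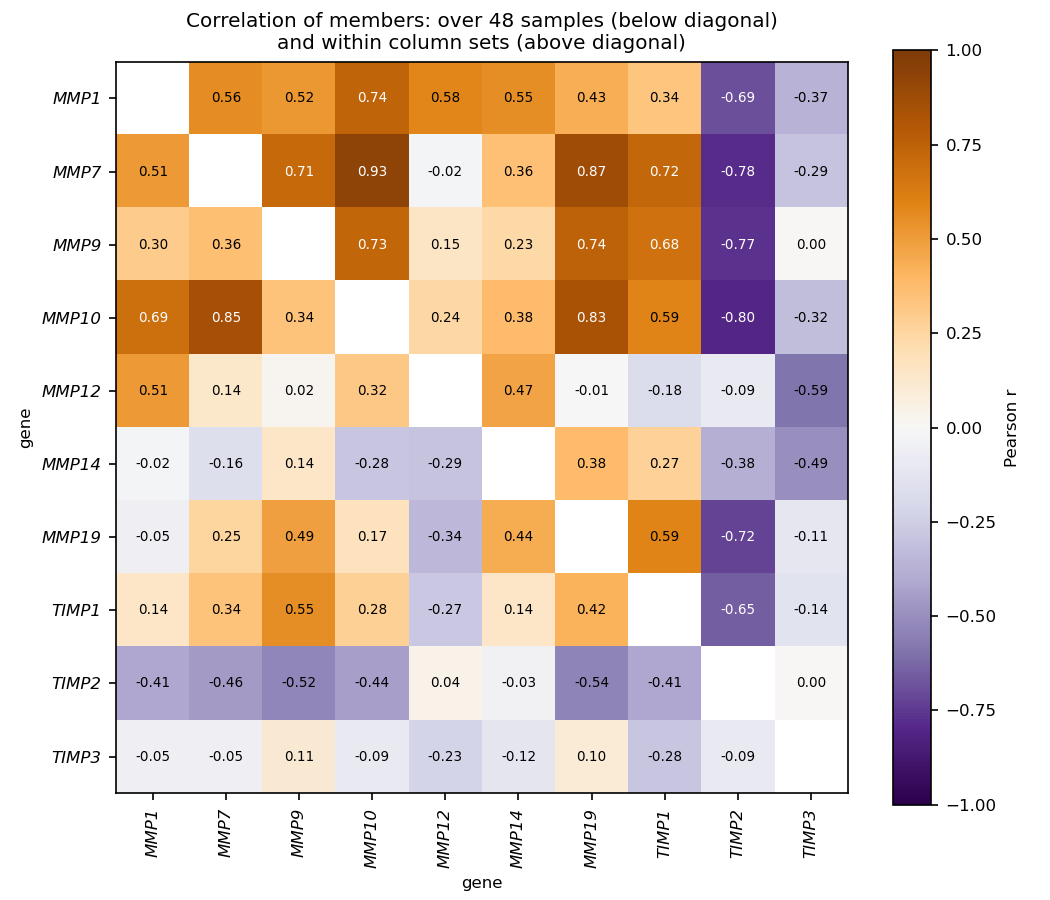
Pearson r between the 10 genes, over the 48 samples (below the diagonal) and for deviations from the column set means (above it). The highest value is that of MMP7 with MMP10, 0.85 below and 0.93 above the diagonal, and TIMP2 lies at -0.41 or lower against 6 members on both sides of the diagonal.

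**Figure D5:**
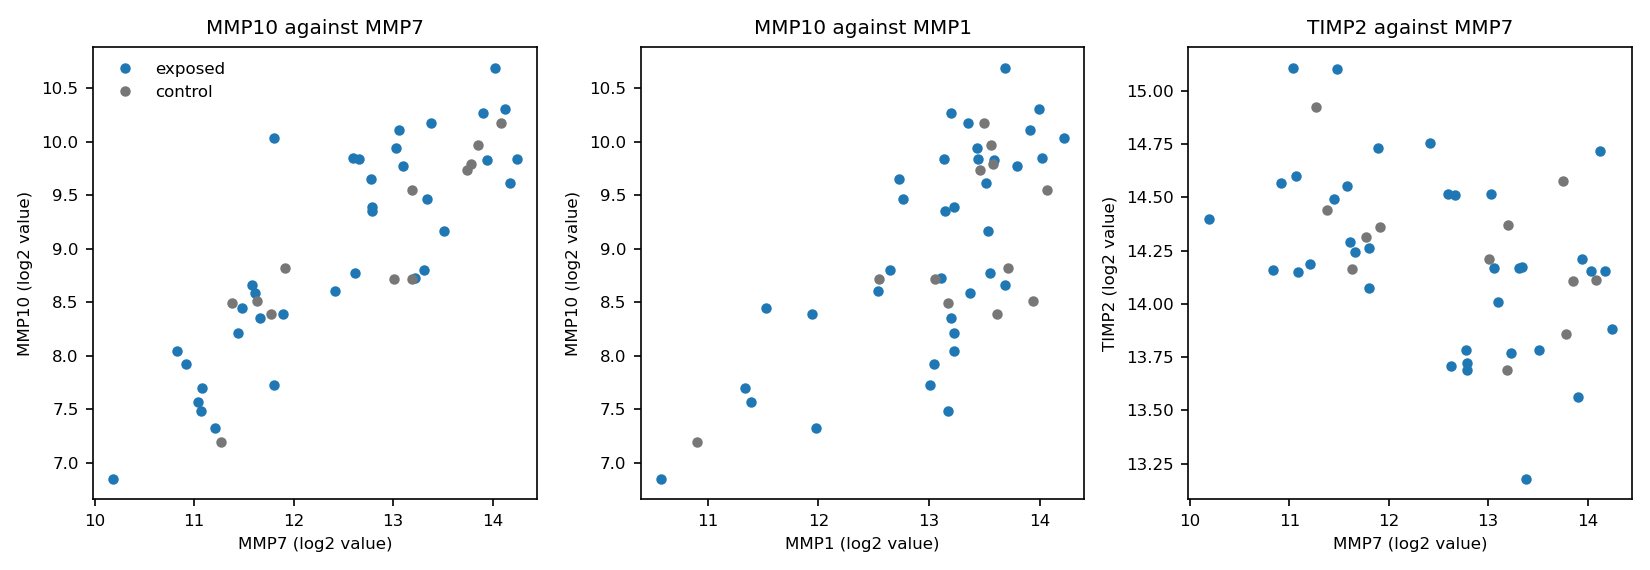
MMP10 against MMP7, MMP10 against MMP1 and TIMP2 against MMP7, all as log2 values with 1 point per sample (grey, controls; blue, exposed). Controls and exposed samples lie along the same bands, upward in the first panel and downward in the third.

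For each member the 3 genes with the highest Pearson r over the 48 samples were sought among 10974 genes with a mean of at least 8. MMP10 was followed most closely by NPFFR2 with r = 0.93, ITGA6, an integrin subunit, with 0.89 and STEAP1 with 0.88. MMP7 was followed by C1orf122 with 0.86, MMP10 with 0.85 and EFNB2, an ephrin ligand, with 0.84. Seen from MMP10, MMP7 ranked only 19th among the genes compared. MMP1 was followed by DIRAS2 with 0.82, the prostaglandin receptor gene PTGER3 with 0.81 and PDGFRA with 0.80, and MMP12 by the adenosine receptor gene ADORA2B with 0.85, RMDN2 with 0.82 and KIAA0513 with 0.80. These values held within column sets, where they ran from 0.72 to 0.95.

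MMP9 was nearest to the cytokine gene IL1B with 0.77, ANXA5, an annexin, with 0.75 and the chemokine gene CCL3 with 0.72, and TIMP1 to ANXA5 with 0.75, IL1RN, the interleukin 1 receptor antagonist, with 0.65 and LOC100129034 with 0.63. The means of IL1B, ANXA5, CCL3 and IL1RN were 15.10 to 15.66, so they share the bright end of the scale with MMP9 and TIMP1, and the part of the limit in these values was not tested. MMP19 was nearest to IQGAP2 with 0.87, FMNL3 with 0.86 and TGM2, a transglutaminase, with 0.86. TIMP2 was nearest to DIAPH1, SLC27A2 and PIGK, each with 0.80, and TIMP3 to the chemokine gene CCL1 with 0.74, TLE1 with 0.70 and NRP2 with 0.68. MMP14 was nearest to ST14, the membrane serine protease matriptase, with 0.92, EFHD2 with 0.86 and WDR18 with 0.84. Within column sets those 3 values dropped to 0.57, 0.50 and 0.01.

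The balance of a protease and its inhibitor was read as the difference of their log2 values in a sample, relative to its mean over all samples, since 2 probes give no absolute ratio. For MMP9 minus TIMP1 it ran from -0.96 in SES 24 h replicate 3 to 1.29 in control 6 h replicate 4. It was the same in the 10 samples where both values were identical. In 21 samples at least one of the pair sat at its sample's limit, so the difference is not measured exactly there, and the lowest value is one of these, with TIMP1 at the limit. The group means and variance shares below include those samples. The control 6 h samples spanned -0.41 to 1.29, with a mean of 0.29 ± 0.64 (SD, n = 6), and those of 24 h -0.21 to 0.49, with a mean of -0.00 ± 0.26 (SD, n = 6). Exposed group means ran from -0.36 ± 0.52 (SD, n = 3) in SES 24 h to 0.27 ± 0.24 (SD, n = 3) in Graphite 24 h. Labelled groups held 28.2% of its variance and column sets 55.5%.

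For MMP14 minus TIMP2 the difference ran from -1.98 in control 6 h replicate 5 to 2.04 in SES 24 h replicate 1. Column sets held 82.2% of its variance and labelled groups 15.3%. The control 6 h samples alone spanned -1.98 to 1.03, and the exposed group with the widest range, tCNT 24 h, -1.62 to 1.57. The mean of the 7 proteases minus the mean of the 3 inhibitors ran from -1.47 in tCNT 24 h replicate 2 to 0.91 in control 6 h replicate 4. Its group means lay between -0.51 ± 0.57 (SD, n = 3) in Baytube 6 h and 0.36 ± 0.34 (SD, n = 3) in SES 6 h. The single 6 h controls ran from -1.37 to 0.91.

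Other genes of matrix breakdown were read from lists chosen with earlier results of these data known. No gene of these lists passed in any of the 12 comparisons (limma). Of the 16 other MMP genes, all measured, 11 had a mean below the median feature of the sample. From each list the gene with the brightest probe is given, which does not rank transcripts. For the other MMP genes it was MMP8, the collagenase of neutrophils, with a mean of 11.49 ± 1.37 (SD, n = 48), and the collagenase gene MMP13 had a mean of 6.89 ± 0.18. At an unadjusted p under 0.05 this list had 6 of 192 tests, 3.13%, against 4.50% over all genes, and the members had 1.67%. The other lists had 4 of 36 tests for other inhibitors, 4 of 48 for plasminogen activation, 4 of 72 for activation and docking and 1 of 96 for the ADAM proteases. For other inhibitors it was A2M, the broad protease inhibitor alpha-2-macroglobulin, with a mean of 15.22 ± 0.35 (SD, n = 48). For the 4 measured genes of plasminogen activation it was PLAUR, the urokinase receptor, at 14.58 ± 1.56. For the 6 genes of activation and docking it was CD44, a hyaluronan receptor that docks MMP9, at 14.04 ± 0.56, and for the 8 ADAM proteases ADAM15 at 13.29 ± 0.36.

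Markers of the labelled cell type were present on average. Of 7 macrophage markers 6 were measured, and none had a mean below the median feature of the sample. CSF1R, the receptor of the macrophage growth factor, had a mean of 15.29 ± 0.42 (SD, n = 48). SPI1, of the same list, varied most, with a mean of 13.08 ± 2.68 (SD, n = 48). It ran from 6.76 to 15.78, and its lowest value was below the median feature of the sample. The log2 of the summed signal of that list ran from 16.32 to 17.11 in controls and from 16.10 to 17.54 in exposed samples. The fibroblast list, checked because fibroblasts make MMP1, TIMP2 and TIMP3, had 4 of 5 markers with a mean below the median feature, COL1A1 among them at 6.83 ± 0.13. The remaining marker was PDGFRA at 9.32 ± 0.75, one of the 3 genes nearest to MMP1. The summed fibroblast signal ran from 9.59 to 10.67 in controls and from 9.38 to 11.11 in exposed samples, and its part in the MMP1 values was not tested. Promyelocyte markers, 4 of 4 measured and 1 of them below the median feature, ran from 12.13 to 14.68 in controls and from 12.00 to 15.76 in exposed samples. Of the epithelial markers 2 of 4 lay below the median feature, with sums of 9.53 to 10.16 in controls and 9.61 to 10.51 in exposed samples. Of the lymphocyte markers 3 of 5 lay below it, with sums of 11.01 to 12.60 and 11.48 to 13.14. The part of these lists in the members' values was not tested. In bulk RNA, fewer cells of a type and less RNA per cell cannot be told apart.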

How the data were processed

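Microarray values of 48 samples were used as the authors deposited them, as log2 values. Per the submitters' processing notes, the tools were R 2.3 and limma. The sources used here do not give the array normalisation. Groups came from sample titles and columns were mapped by name; 0 columns stayed unmapped. The members and all gene lists were chosen with earlier results of these data known. Named genes were the 10 members, the member with the lowest unadjusted p in each comparison, the 3 nearest genes per member, the highest mean of each list and list genes past the threshold. MMP3, MMP13, MMP17, COL1A1, PDGFRA and SPI1 are named beyond that rule, after their values were seen.

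Tests used limma 3.58.1 in R 4.3.3: a single model of all 48 samples, with a term for each of 14 groups and for dye (32 residual degrees of freedom), Benjamini-Hochberg adjusted within each comparison over 20399 genes at 0.05. The labelled array had a consensus correlation of -0.0224, so it was not used as a block, and that of the column set was 0.72. The surface component was the median of 11 by 11 spots in rows of 85. Summaries were made in Python 3.11.15. Samples with the same code letter had a mean correlation of 0.0059 in their deviations from group means, with a lowest pair of -0.84. The scripts were tested on simulated data. For the fits these were drawn independently for each sample, so that test does not cover the correlation within column sets. The number of arrays limits the precision; signal over background is not in the table.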

Additional observations from a re-analysis of the deposited data

How the results depend on the processing

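Counts of members past the threshold were 0 in 1371 of 1375 combinations of a comparison and another setting, and 942 of 944 recomputed fold changes of the named members had the same sign. No paired analysis is supported by the labels; with the code letter as a replicate block, 0 members passed in every comparison. The exceptions were these. Without the 12 samples of column sets 1 to 4, added after seeing the data, 1 member, MMP14, passed in Graphite 24 h and 1 in the difference between the Graphite responses at 24 and 6 h, where fewer samples are left and 17.9% and 13.6% of all genes passed. MMP12 in rCNT 24 h turned to 0.20 in that setting. With the column set as a block, 1 member passed between dyes and 2 between column ranges. TIMP1 between control times turned to -0.0108 with the controls of code 1 alone. The causes were not tested. Leaving out 1 sample at a time left 0 members past the threshold in each comparison.

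The number of samples with MMP9 at the ceiling was 39 within 0.5 of the highest value and 11 with the mean of its features, and that for TIMP1 was 36 within 0.5. The r of MMP9 with TIMP1 was 0.29 over column set means, and that of MMP9 with TIMP2 was -0.25 over those means and -0.77 within sets. The lowest MMP9 minus TIMP1 difference was -1.47 with the mean of features and -1.49 with the surface component subtracted. Limits: the labels and columns disagree, most groups hold 3 samples, MMP9 and TIMP1 are cut off at the bright end, and MMP10 and MMP12 reach the dim end. The labelled array block was not run because its correlation was below 0.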

Other observations

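MMP8 and MMP17, which are no members, had higher SDs over the samples than any member, 1.37 and 1.59. MMP8 ran from 8.54 through a median of 12.07 to 13.90 over the 48 samples, and MMP17, a membrane-anchored MMP, from 8.89 through 9.91 to 14.37. MMP3, the stromelysin 1 gene that lies beside MMP1 on chromosome 11, ran from 6.91 through 8.49 to 10.30. PLAUR, the urokinase receptor gene, ran from 8.99 through 15.06 to 15.96. These genes were named after their values were seen.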
